A study of Homo sapiens with 6 samples.

Results

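The 57 genes described here are interferon-stimulated genes and the sensors that switch them on, followed in MDA-MB-231 cells, an invasive triple-negative breast cancer line, after depletion of CRP2, the actin-binding LIM protein encoded by CSRP2. They were taken by symbol, with no threshold on a measured value in the rule, out of 58395 genes in the deposited count table, and all 57 were among the 23806 genes with enough counts to be tested. The list holds 6 sensors and adaptors of foreign RNA, 7 chains of the interferon receptor and transcription factors, and 44 effectors. RNA was sequenced from 3 libraries of cells transfected with a non-targeting siRNA (siCTR) and 3 of cells transfected with a single siRNA against CSRP2, siCRP2#a (siCRP2), 65 h after transfection according to the labels. The methods place the extraction slightly later. Both groups received an siRNA duplex, and untransfected cells or a second siRNA were not analysed here. The study calls the libraries of a group biological replicates, and the labels do not say whether they came from separate cultures. A p-value here thus covers the spread between such libraries. P-values of an alternative fit, described below, rest largely on a spread pooled over genes. The columns carry no replicate number but a code that 1 library of each group shares. These 3 codes are called A, B and C here, in ascending order, and the values of a gene are given in that order.

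Library totals ran from 17336798 to 39115778 counts, so that 3 counts, taken as the floor, were worth 0.0768 to 0.175 CPM, the unit of counts scaled to the library total. CSRP2 stood at 13.7, 11.7 and 11.4 CPM in siCTR and at 2.17, 1.78 and 1.89 CPM in siCRP2, which is -2.66 on the log2 scale (standard error 0.178, edgeR adjusted p = 2.42e-08). The cells carried VIM and CD44, markers of the line, but did not follow its pattern in every marker. In siCTR, VIM was at 1780 CPM and CD44 at 936 CPM, while ESR1 had 1 count in one group and 3 in the other and PGR had 0 in all 6 libraries. Leukocyte markers were low, with 27 and 25 counts of PTPRC summed over a group and 0 and 1 of CD3E. Against the pattern, CDH1, expected at or near 0 in this line, was at 17.4 CPM in siCTR. The endothelial marker PECAM1 was at 15.6 CPM and the fibroblast marker LUM at 5.18 CPM in siCTR.

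Cells detect double-stranded RNA through the cytoplasmic helicases RIG-I (RIGI) and MDA5 (IFIH1), which signal through the mitochondrial adaptor MAVS, through TLR3 in endosomes, and through the kinase PKR (EIF2AK2). These routes activate IRF3 and IRF7, which induce interferons. Secreted type I interferon then binds the receptor chains IFNAR1 and IFNAR2, whose kinases activate STAT factors that, together with IRF9, bind interferon-stimulated response elements (ISRE) in the promoters of effector genes. Interferon gamma acts through a different element, the gamma-activated site (GAS).

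To show what the members share in sequence, the promoter windows of RefSeq (GRCh38.p14, 250 bases before the start site to 50 after it) were searched on both strands for the ISRE core, which is the tetramer GAAA followed after 2 bases by GAAA again, and for the GAS core TTCNNNGAA. Windows matched 46 of the 57 members by symbol. The ISRE core was present in 28 of these 46 (60.9%), against 3.57% of all 35116 windows, and the GAS core in 13 (28.3%), against 7.66%. The ISRE core was held by 3 of 5 sensors, 0 of 4 receptor chains and factors and 25 of 37 effectors (67.6%). Matches to the 2 cores overlapped in IFITM1, BST2, IFI27 and EPSTI1. A match is a description of letters and not a measured binding site in these cells. The stretches below are 60 bases long, read 5′ to 3′ on the strand of the gene, with matches to the ISRE core in capitals. They come first from neighbouring IFIT genes of chromosome 10, of which one rose and the others did not pass the test.
IFIT3: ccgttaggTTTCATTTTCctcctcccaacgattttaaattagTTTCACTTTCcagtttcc
IFIT1: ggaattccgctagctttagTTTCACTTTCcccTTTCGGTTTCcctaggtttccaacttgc
IFIT5: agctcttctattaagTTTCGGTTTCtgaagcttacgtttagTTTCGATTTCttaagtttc

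These lie at chr10:89327833-89327892, chr10:89392488-89392547 and chr10:89414508-89414567, all on the plus strand of GRCh38. Each holds 2 copies of the core. The next stretches belong to effectors that fell, and carry the same core.
IFITM3: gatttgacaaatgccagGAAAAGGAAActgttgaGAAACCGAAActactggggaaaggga
BST2: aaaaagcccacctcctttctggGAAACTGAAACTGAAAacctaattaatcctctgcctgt
EPSTI1: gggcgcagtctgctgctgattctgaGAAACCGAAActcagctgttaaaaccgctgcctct
IFI44: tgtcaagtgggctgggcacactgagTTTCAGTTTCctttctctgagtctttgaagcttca

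They are at chr11:320870-320929 (minus strand), chr19:17405723-17405782 (minus), chr13:42992257-42992316 (minus) and chr1:78649746-78649805 (plus). The last set is from the sensing arm, where the promoter of IFIH1 held the core and those of RIGI and MAVS had no match in the window. Those of TLR3, which fell, and of EIF2AK2 also held the core, in matches that span the start site, and are not shown.
IFIH1: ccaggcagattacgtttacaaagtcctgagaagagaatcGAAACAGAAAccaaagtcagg
RIGI: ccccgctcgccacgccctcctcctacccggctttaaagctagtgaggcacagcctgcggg
MAVS: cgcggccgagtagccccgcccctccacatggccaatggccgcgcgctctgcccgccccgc

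These are chr2:162318685-162318744 (minus), chr9:32526197-32526256 (minus) and chr20:3846774-3846833 (plus), each ending at the base before the start site.

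In CRP2-depleted cells, 20 of the 57 members fell (35.1%) and 6 rose (10.5%) at an edgeR adjusted p under 0.05, while 31 did not pass the test. Over all genes tested, 11.5% fell and 12.5% rose. The shares over all genes here and below include genes with few counts, since a count in 2 libraries of a group was enough. The members are all protein-coding, and of the 14858 protein-coding genes tested, 2369 fell and 2852 rose. Beside these the members stand out less in falls. A smaller share of them rose, a gap of few genes that was not tested. The members' median log2 fold change was -0.14, beside -0.02 for all genes, and ranged from -2.56 for EPSTI1 to 0.63 for IFIT3. Only EPSTI1, IFI44L and OAS1 passed with a fold change over 2, all lower (4.51% of all genes passed lower at that fold and 1.35% higher), so most changes were small. The values of siCTR and siCRP2 libraries did not overlap in 30 members (37.4% of all genes). With the code as a block, 28 members fell and 9 rose, where 17.8% and 19.5% of all genes did. In that fit the standard errors of well-expressed members were nearly alike whatever their own spread, as in MAVS (0.0632), IFIT1 and STAT2 (both 0.0647). Its p-values thus rest largely on a spread pooled over genes, and do not measure that of each gene between libraries. In these bulk libraries, fewer cells expressing a gene and less RNA per cell cannot be told apart. The count of members that fell was 13 without the siCTR library B and 15 to 22 without any other single library. The count that rose was 2 without the siCRP2 library B, 3 without the siCRP2 library A or C or the siCTR library B, and 4 or 5 without either other siCTR library.

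**Figure D1:**
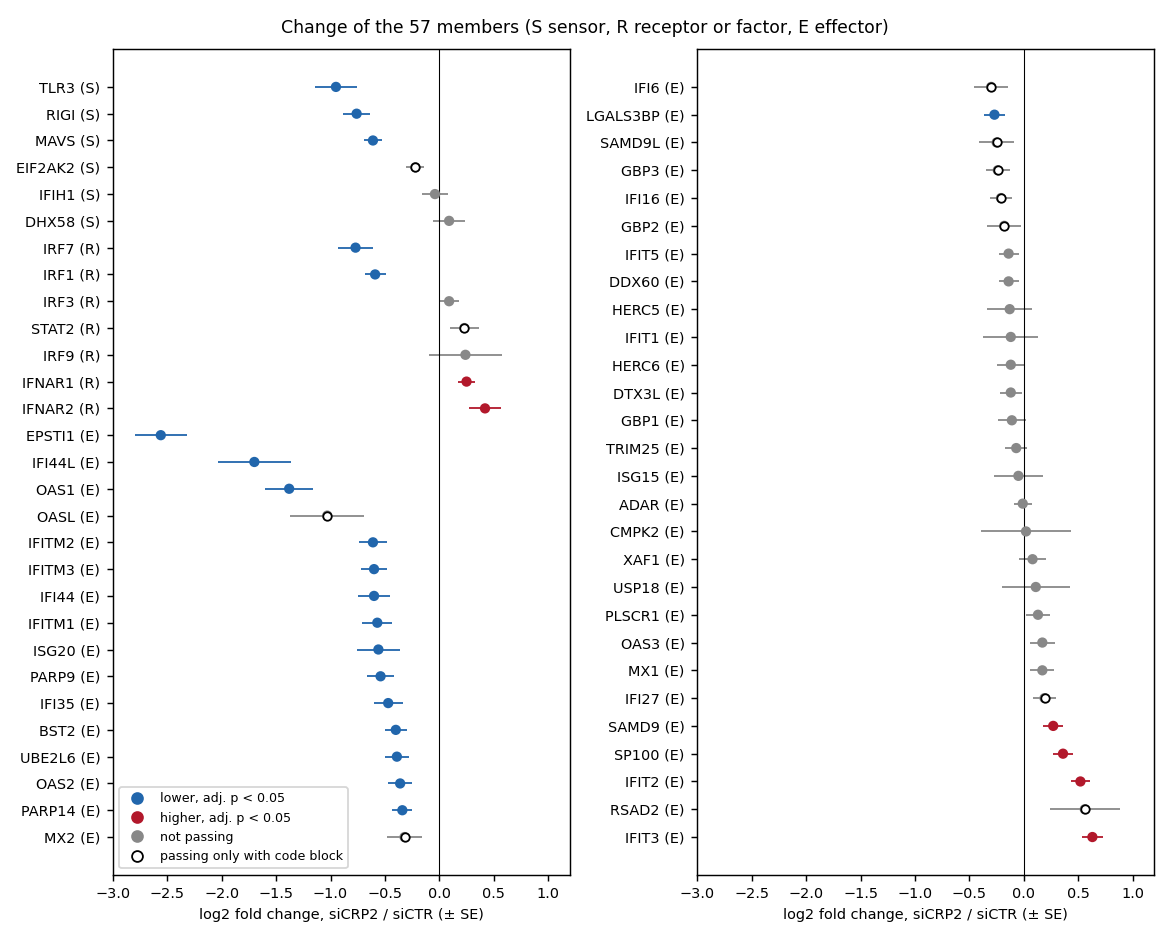
Log2 fold change of each of the 57 members, siCRP2 against siCTR, with its standard error, grouped into sensors (S), receptor chains and factors (R) and effectors (E). Blue points fell (20), red points rose (6) and grey points did not pass the test, and open circles passed with the code as a block but not without it (11).

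Among the 6 sensors and adaptors, RIGI, MAVS and TLR3 fell and the other 3 did not pass the test. RIGI (ENSG00000107201, chromosome 9, 32455302 to 32526208, minus strand), which recognises RNA with a triphosphate end, was at 141, 176 and 198 CPM in siCTR and at 90.7, 98.6 and 114 CPM in siCRP2. Each siCRP2 library lay below each siCTR library. The difference was -0.76 on the log2 scale (standard error 0.125, edgeR adjusted p = 0.00083). MAVS (ENSG00000088888, chromosome 20, 3846799 to 3876123, plus strand), the adaptor on which RIG-I and MDA5 converge, was at 225, 212 and 216 CPM in siCTR and at 129, 153 and 145 CPM in siCRP2. Its groups did not overlap and it changed by -0.61 on the log2 scale (standard error 0.0861, edgeR adjusted p = 5.68e-05). TLR3, the endosomal receptor, was the least abundant of the 3, at 13.4, 15.5 and 11.3 CPM in siCTR and 8.15, 7.89 and 5.04 CPM in siCRP2. It changed by -0.95 (standard error 0.189, edgeR adjusted p = 0.00162), again without overlap.

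The other sensors did not pass the test. IFIH1, the sensor of long double-stranded RNA, was at 27.1, 28.9 and 33.2 CPM in siCTR and 28.6, 26.2 and 31.5 CPM in siCRP2, and the groups overlapped (log2 fold change -0.04, standard error 0.116, edgeR adjusted p = 0.835). DHX58, which encodes the regulatory helicase LGP2, changed by 0.09 on the log2 scale (standard error 0.145) and overlapped. EIF2AK2, whose product PKR halts translation, stood at 121, 118 and 108 CPM in siCTR and 98.4, 103 and 97.5 CPM in siCRP2. Its groups did not overlap, and the edgeR adjusted p was 0.0719 without a block and 0.00335 with the code as a block. Within a library, the counts of RIGI were 5.19, 6.09 and 5.95 times those of IFIH1 in siCTR and 3.17, 3.76 and 3.61 times in siCRP2. This pair was chosen after its values were seen and the ratio was not tested.

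Both chains of the type I interferon receptor rose. IFNAR1, the low-affinity chain, was at 94.8, 100 and 98.4 CPM in siCTR and 117, 117 and 114 CPM in siCRP2 (log2 fold change 0.25, standard error 0.0802, edgeR adjusted p = 0.0331). IFNAR2, the high-affinity chain, was at 8.89, 9.72 and 7.92 CPM in siCTR and 12.7, 12.0 and 10.8 CPM in siCRP2 (0.42, standard error 0.146, edgeR adjusted p = 0.0461). Neither gene overlapped between groups. Both lost the call when any 1 of the 6 libraries was left out, with adjusted p of 0.054 to 0.161 for IFNAR1 and 0.0603 to 0.151 for IFNAR2. Of the bases in the exons of IFNAR2, 2038 of 13865 are shared with the readthrough gene IFNAR2-IL10RB and 1803 with IL10RB-DT on the opposite strand, so its counts are uncertain.

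Of the 5 factors, IRF1 and IRF7 fell. IRF1, a factor induced by interferon gamma, held 119, 114 and 103 CPM in siCTR and 82.9, 74.1 and 66.4 CPM in siCRP2. The groups were separate, differing by -0.59 on the log2 scale (standard error 0.0976, edgeR adjusted p = 0.000251). Exons of IRF1 share 2805 of 12265 bases with IRF1-AS1 on the opposite strand. IRF7, the amplifier of type I interferon, held 9.36, 10.2 and 12.6 CPM in siCTR and 7.19, 6.01 and 5.81 CPM in siCRP2 (-0.77, standard error 0.165, edgeR adjusted p = 0.00242). IRF3, its constitutive relative, was at 73.2, 79.6 and 82.3 CPM in siCTR and at 78.0, 84.8 and 86.9 CPM in siCRP2, and the groups overlapped (edgeR adjusted p = 0.525). STAT2 had overlapping groups as well, at 114, 87.8 and 111 CPM in siCTR and 121, 102 and 143 CPM in siCRP2. The difference of 0.23 on the log2 scale (standard error 0.133) gave an edgeR adjusted p of 0.268 without a block and 0.002 with it. Code by code the differences were 0.08, 0.22 and 0.37, and the second p-value rests largely on a spread pooled over genes. IRF9, the DNA-binding partner of STAT2, was low throughout, at 0.757 to 1.74 CPM in siCTR and 1.03 to 2.06 CPM in siCRP2, and 1544 of its 6471 exon bases are shared with another gene on the same strand.

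**Figure D2:**
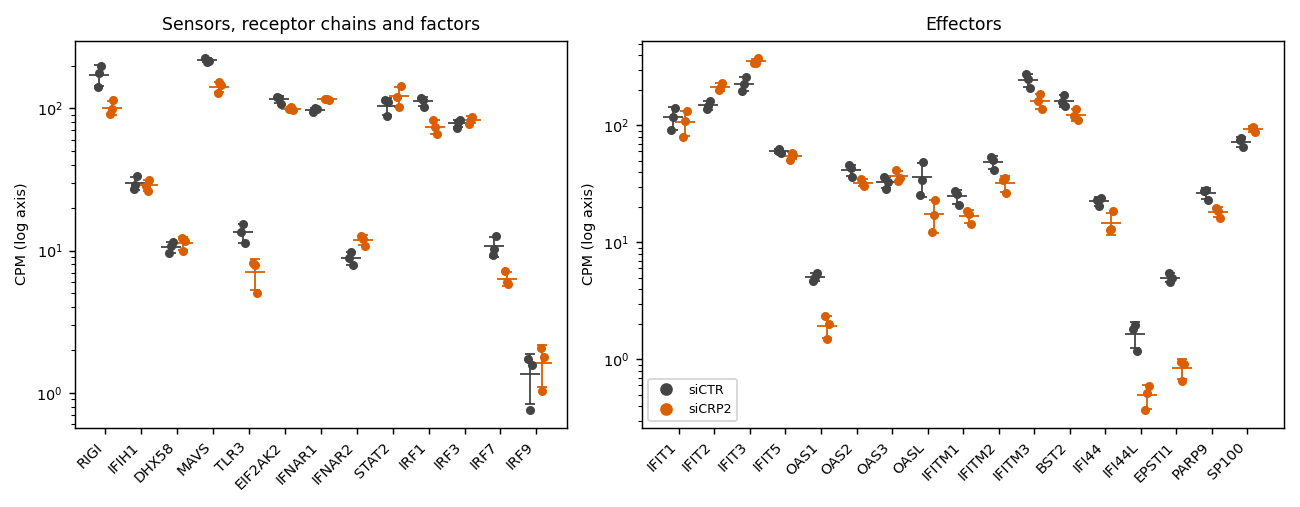
CPM in each of the 6 libraries, on a log axis, with the mean and SD of each group, for the 13 sensors, receptor chains and factors and for 17 effectors. RIGI, MAVS, TLR3, IRF1 and IRF7 sit lower in every siCRP2 library than in any siCTR library, whereas IFIH1, IRF3 and STAT2 overlap.

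Effectors here are all members that are not sensors, receptor chains or factors, and not all of them block steps of the viral life cycle. Of the 44, 15 fell (34.1%) and 4 rose (9.09%) without a block, where 11.5% and 12.5% of all genes did. With the block, 22 fell (50%) and 6 rose (13.6%), where 17.8% and 19.5% of all genes did. The shares that rose lay below those of all genes, but they rest on 4 and 6 genes and the gap was not tested. In the fit with no block, 8 fell without the siCTR library B and 2 rose without the siCRP2 library B. By length, the levels in TPM (counts per transcript length, scaled to the library) in siCTR ran from 0.624 for CMPK2 to 955 for IFITM3 with a median of 31.9 over the members, and the highest after IFITM3 were LGALS3BP at 825 TPM, BST2 at 387 TPM, IFI27 at 298 TPM, ISG15 at 249 TPM and IFIT3 at 227 TPM.

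The IFIT family, whose proteins bind viral RNA and lie side by side on chromosome 10, split. IFIT3 was at 199, 226 and 260 CPM in siCTR and 343, 341 and 375 CPM in siCRP2. It rose by 0.63 on the log2 scale (standard error 0.098, edgeR adjusted p = 0.000148), the largest increase of any member. IFIT2 rose by 0.52 (standard error 0.0902, edgeR adjusted p = 0.000371), from 137, 148 and 162 CPM to 200, 210 and 231 CPM. IFIT1 was at 91.2, 118 and 142 CPM in siCTR and 79.7, 110 and 132 CPM in siCRP2, with overlapping groups (edgeR adjusted p = 0.793). IFIT5 was likewise within the spread, at 60.5, 63.3 and 57.7 CPM against 50.8, 58.0 and 56.2 CPM (adjusted p = 0.318). The ratio of IFIT3 to IFIT1 counts was 2.18, 1.91 and 1.83 in siCTR and 4.31, 3.09 and 2.83 in siCRP2, and that of IFIT2 to IFIT1 was 1.5, 1.25 and 1.14 in siCTR and 2.51, 1.90 and 1.75 in siCRP2. These ratios were chosen after the values were seen and were not tested. As shown above, the promoters of IFIT3, IFIT1 and IFIT5 all carry 2 or more copies of the core.

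The OAS family makes the second messenger that activates RNase L. OAS1 was at 4.66, 5.07 and 5.49 CPM in siCTR and 2.33, 1.5 and 2.00 CPM in siCRP2. It fell 2.61-fold (log2 fold change -1.38, standard error 0.218, edgeR adjusted p = 0.000168). OAS2 was at 45.5, 42.9 and 36.4 CPM in siCTR and 35.1, 31.9 and 30.5 CPM in siCRP2 (-0.36, standard error 0.11, adjusted p = 0.0244). OAS3, located between them on chromosome 12, was at 36.3, 28.8 and 33.1 CPM in siCTR and 41.4, 33.4 and 35.6 CPM in siCRP2, and the groups overlapped (0.17, adjusted p = 0.346). OASL, which lacks the synthetase activity, held 25.5, 34.2 and 48.4 CPM in siCTR and 12.3, 17 and 23.1 CPM in siCRP2. Its groups did not overlap, but libraries of a group differed so much that the edgeR adjusted p was 0.0982 without a block (log2 fold change -1.03). With the code as a block it was 9.95e-31, a value that rests on the pooled spread of that fit and not on OASL alone. The OAS2 call was lost without the siCTR library A or B or the siCRP2 library B or C (adjusted p 0.0643 to 0.099).

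All 4 members of the IFITM and tetherin group, membrane proteins that restrict the entry or release of enveloped virus, fell. IFITM3 was at 274, 252 and 209 CPM in siCTR and 163, 184 and 139 CPM in siCRP2 (log2 fold change -0.60, standard error 0.119, edgeR adjusted p = 0.00241). IFITM1 went from 27.6, 25.8 and 21.0 CPM to 18.5, 17.6 and 14.3 CPM, and IFITM2 from 54.0, 50.2 and 41.8 CPM to 34.0, 35.4 and 26.5 CPM. The groups were separate in all of them. BST2, the tetherin gene, was at 160, 182 and 146 CPM in siCTR and 120, 139 and 111 CPM in siCRP2 (-0.40, standard error 0.101, adjusted p = 0.00738), a call that was lost without the siCRP2 library C (0.0527) or the siCTR library B (0.0683). IFITM1, IFITM2 and IFITM3 are neighbours of closely similar sequence on chromosome 11, so reads may have been split between them by the counting.

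The steepest falls were in EPSTI1 and IFI44L. EPSTI1, a gene of epithelial-stromal interaction, was at 5.49, 4.60 and 4.94 CPM in siCTR and 0.952, 0.657 and 0.922 CPM in siCRP2. This is a 5.88-fold difference (log2 fold change -2.56, standard error 0.24, edgeR adjusted p = 9.22e-07). IFI44L was at 1.82, 1.98 and 1.19 CPM in siCTR and 0.370, 0.516 and 0.589 CPM in siCRP2, or -1.70 on the log2 scale (standard error 0.333, adjusted p = 0.00113). Its neighbour IFI44 was at 22.9, 20.3 and 24 CPM and fell to 12.8, 13 and 18.4 CPM (-0.60, standard error 0.146, adjusted p = 0.00599). IFI35 fell as well, from 21.6, 24.2 and 19.5 CPM to 15.7, 17.7 and 13.7 CPM (-0.47, standard error 0.132, adjusted p = 0.0141), and lost the call without the siCRP2 library C (0.081) or the siCTR library B (0.0932). IFI6, IFI16 and IFI27 did not pass without a block and passed with it, at -0.30, -0.20 and 0.19 on the log2 scale of that fit.

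PARP9 and PARP14, mono-ADP-ribosyltransferase family members, fell while DTX3L, the ubiquitin ligase partner of PARP9 encoded beside it, did not pass. PARP9 was at 27.7, 28.0 and 23.2 CPM in siCTR and 19.8, 18.6 and 16.2 CPM in siCRP2 (-0.54, standard error 0.124, edgeR adjusted p = 0.00409). PARP14 was at 99.5, 114 and 120 CPM in siCTR and 81.9, 94.0 and 87.3 CPM in siCRP2 (-0.34, standard error 0.0933, adjusted p = 0.0118). DTX3L was at 73.3, 64.3 and 56.2 CPM in siCTR and 60.3, 61.8 and 56.8 CPM in siCRP2. PARP9 and DTX3L share 139 exon bases on opposite strands. PARP14 lost the call without the siCRP2 library A (0.0543) or the siCTR library B (0.0609).

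The ISG15 system attaches the ubiquitin-like protein ISG15 to its targets. Its conjugating enzyme UBE2L6 fell, from 67.3, 60.6 and 52.1 CPM to 46, 49.9 and 41.3 CPM (-0.39, standard error 0.109, edgeR adjusted p = 0.0137), although not without the siCRP2 library C (0.074) or the siCTR library A (0.0514) or B (0.062). The other 5 genes of the system did not pass with or without the block. ISG15 itself was at 57.2, 58.0 and 85.3 CPM in siCTR and 51.2, 63.2 and 78.4 CPM in siCRP2, so that libraries of one group differed more than the groups did.

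The remaining effectors included a few that rose. SP100, a nuclear body protein, was at 74.7, 77.9 and 65.2 CPM in siCTR and 95.6, 96.6 and 87.7 CPM in siCRP2 (0.36, standard error 0.0918, edgeR adjusted p = 0.00749, lost at 0.0661 without the siCRP2 library B). SAMD9 was at 55.1, 50.6 and 54.6 CPM in siCTR and 67.6, 59.4 and 66.5 CPM in siCRP2 (0.27, standard error 0.0918, adjusted p = 0.04), and its call did not survive leaving out any siCRP2 library or the siCTR library B. Its neighbour SAMD9L had a log2 fold change of -0.25 and passed with the block but not without it. LGALS3BP, a secreted glycoprotein, was at 721, 772 and 802 CPM in siCTR and 584, 705 and 615 CPM in siCRP2 (-0.27, standard error 0.0933, adjusted p = 0.0449). ISG20, an exonuclease, was at 5.85, 6.87 and 8.33 CPM in siCTR and 3.70, 4.79 and 5.58 CPM in siCRP2 (-0.56, standard error 0.196, adjusted p = 0.0458). LGALS3BP lost its call without siCRP2 library A or C or siCTR library B or C (0.112 to 0.176), and ISG20 without siCRP2 library A or B or siCTR library B or C (0.107 to 0.179). MX1, the dynamin-like GTPase, was at 43.0, 39.0 and 45.5 CPM in siCTR and 41.6, 47.2 and 54.0 CPM in siCRP2 and did not pass. The guanylate-binding protein genes GBP2 and GBP3 passed with the block but not without it. GBP2 was higher in siCRP2 in code A and lower in B and C (log2 differences 0.11, -0.3 and -0.29), and its groups overlapped. GBP3, the highest per length at 107 TPM, was at 151, 143 and 114 CPM in siCTR and 124, 123 and 101 CPM in siCRP2 (-0.24, adjusted p = 0.154, 0.00113 with the block), and reads of GBP1, GBP2 and GBP3 may have been split by similarity. The effectors not named with values had log2 fold changes from -0.14 to 0.13 and did not pass, apart from GBP2, MX2 and RSAD2, which passed once the block was added (-0.16, -0.30 and 0.54 in that fit).

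The members varied along the column codes as well as with CRP2 depletion. With the group as a term, 26 of the 57 differed between the codes at an edgeR adjusted p under 0.05 (45.6%), where 14.9% of all genes did. In 17 of the 26 the 3 codes had the same order in both groups. The 26 were picked by a code effect common to both groups, so a shared order is partly built in. OASL was higher in the C than in the A library by 1.90 times in siCTR and 1.87 times in siCRP2. The same ratio was 1.56 and 1.66 for IFIT1, 1.49 and 1.53 for ISG15, 1.55 and 1.5 for HERC5 and 1.65 and 1.73 for RSAD2, while SAMD9L was lower in C, at 0.704 and 0.688. The labels do not say what the codes stand for. Of the 11 members that passed with the block but not without it, 8 also differed between the codes. Both calls come from the same fit, with its spread pooled over genes, and are not independent. In 47 members the difference between the groups had 1 sign in all 3 codes, a share to be read beside 56.9% of all genes, and the median log2 difference of the members was -0.22, -0.19 and -0.15 in codes A, B and C.

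**Figure D3:**
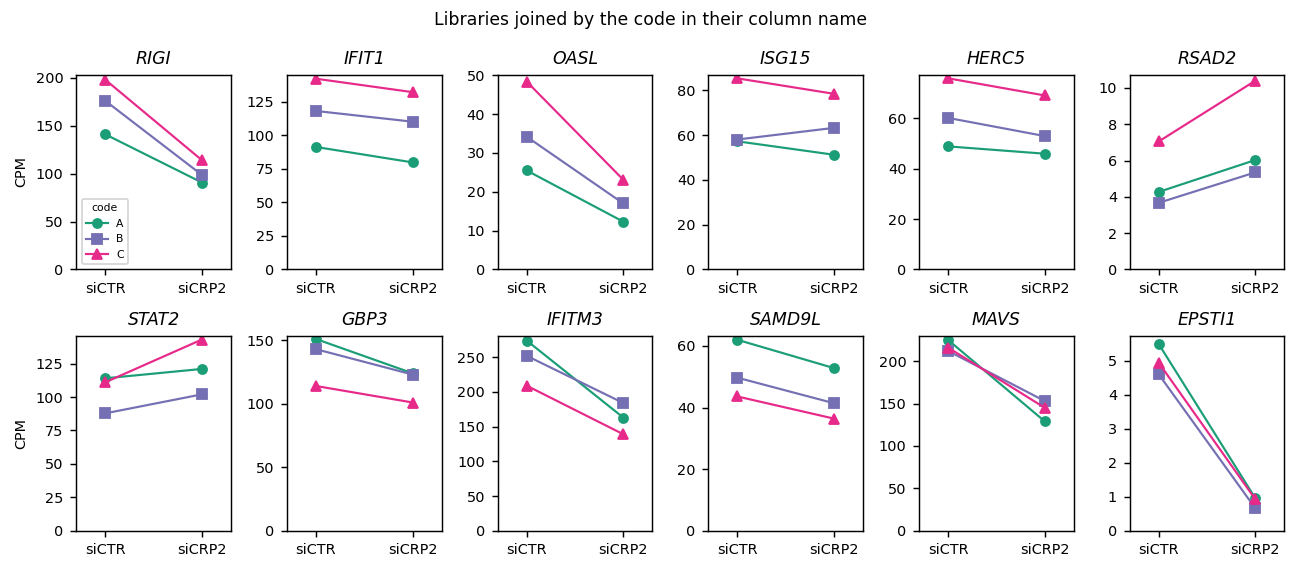
CPM of 12 members in siCTR and siCRP2, joined by a line for each column code. The lines of IFIT1, ISG15 and OASL are spread by code in the same order in both groups, and those of OASL all descend from siCTR to siCRP2.

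By promoter, the ISRE core was held by 11 of 17 matched members that fell (64.7%), 2 of 4 that rose (50%) and 15 of 25 that did not pass (60%). The GAS core was held by 8 of 17 that fell (47.1%), 0 of 4 that rose and 5 of 25 that did not pass (20%). A GAS match shares letters with an ISRE match in IFITM1, BST2 and EPSTI1, which fell, and in IFI27, which did not pass. These shares are descriptions without a test.

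**Figure D4:**
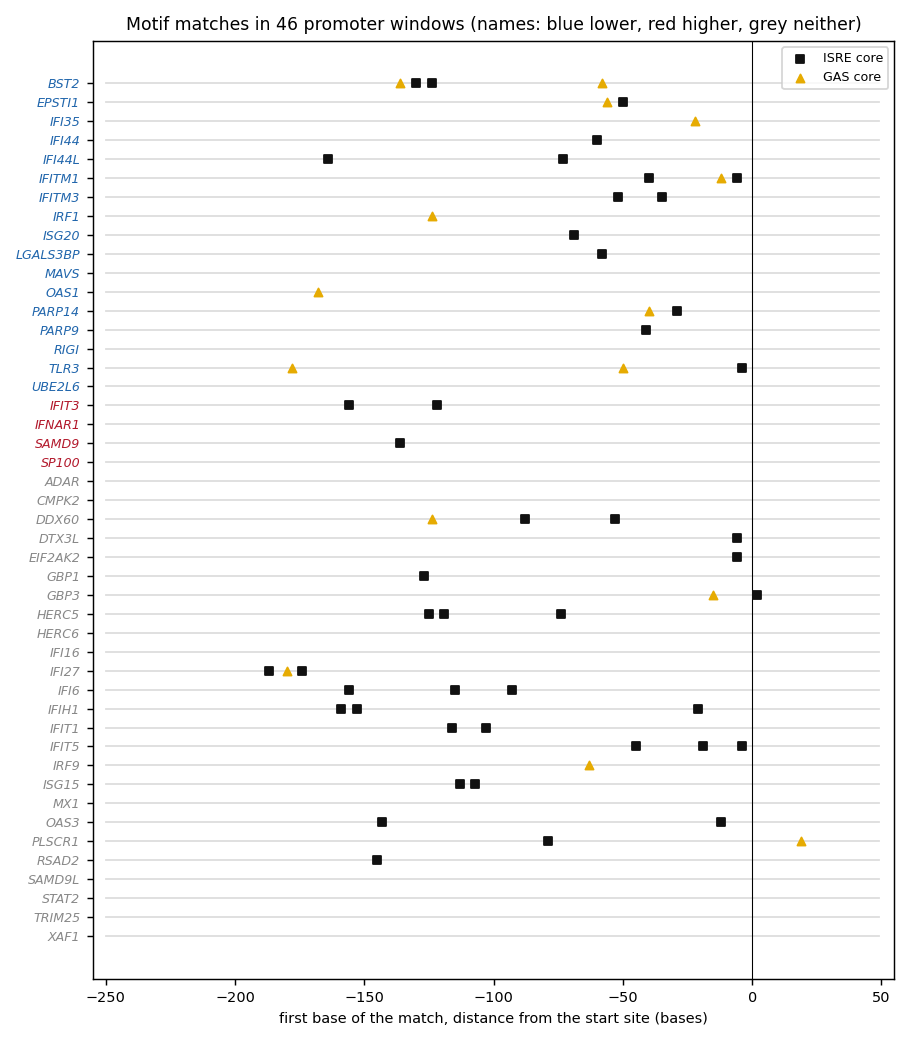
Position of each match to the ISRE core and the GAS core relative to the start site in the 46 promoter windows, in bases, with the members ordered by whether they fell (blue names), rose (red) or did not pass (grey). Most matches to the ISRE core lie before the start site, and 28 of the 46 windows have at least 1.

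Genes around the members were taken from a list of 75 kinases, ligands, sensing components and further interferon-stimulated genes, of which 66 could be tested. Of these, 18 fell (27.3%) and 13 rose (19.7%), where 11.5% and 12.5% of all genes did. With the code as a block, 21 fell and 21 rose (31.8% each), where 17.8% and 19.5% of all genes did. Of the 13 kinases, other receptors and feedback genes, 5 fell (38.5%) and 1 rose (7.69%). The sensing cascade, with 12 tested, had 4 that rose (33.3%) and 8 that did not pass. Among 40 further interferon-stimulated genes, 13 fell (32.5%) and 8 rose (20%). The strongest rise was in DDX60L, a helicase relative of DDX60, at 55.4, 55.8 and 62.3 CPM in siCTR and 105, 112 and 117 CPM in siCRP2 (log2 fold change 0.95, standard error 0.0884, edgeR adjusted p = 8.43e-07). TRIM14, an adaptor linked to MAVS signalling, fell (-1.39, standard error 0.18, adjusted p = 0.000133), as did RNF213 (-0.60) and the receptor kinase TYK2 (-0.53). RIOK3 (0.55), the DNA sensor CGAS (0.53), PARP12 (0.48), ZNFX1 (0.50) and CD274 (0.60), which encodes PD-L1, rose. These genes were named by smallest p, and their directions do not mirror the list. With a fold change over 2, 7 of the 66 passed lower and 0 higher, where 4.51% and 1.35% of all genes did. The type I and III ligands were near or at 0. IFNB1, IFNA1, IFNA2, IFNE, IFNK, IFNL2 and IFNL3 had 0 counts in all 6 libraries, which allows up to 0.175 CPM in the shallowest of them. For IFNA1 this bound is uncertain, since 557 of its 878 exon bases are shared with MIR31HG on the opposite strand. IFNL1 had 6 counts over siCTR and 2 over siCRP2, a ratio of 0.271 with an exact 95% interval of 0.0267 to 1.51 that covers counting error only.

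Measures that moved alongside some members are given without a test of their part in the result. The heptamer GCCTCAC, which was picked from these same fold changes and is therefore not independent, was in the canonical transcript of 6 of the 20 members that fell (30.0%), namely MAVS, TLR3, OAS1, PARP14, EPSTI1 and LGALS3BP. It was in 0 of 6 that rose and in 3 of 31 that did not pass (9.68%). Over all protein-coding genes tested, 46.5% of those that fell held it, as did 11.9% of those that rose and 21.9% of the rest. Its part in the falls was not tested. Exons of 23 members share bases with another deposited gene, 19 with one on the opposite strand, and the counts do not state whether strand was used. The epithelial marker CDH1 was at 17.4 CPM in siCTR and 33.2 CPM in siCRP2 (edgeR adjusted p = 0.000652), and the endothelial marker PECAM1 at 15.6 and 5.62 CPM (adjusted p = 0.00989).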

How the data were processed

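The authors sequenced RNA of MDA-MB-231 cells and deposited raw counts per gene, made with STAR and its gene count option on GRCh38. The submitters' processing notes also name hg38. No source used here gives the STAR version, the annotation or the strand setting. The methods describe a stranded kit and the labels a standard mRNA kit. Column names gave the group, siCTR or siCRP2, and nothing ties their codes to the replicate numbers of the labels.

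A gene was tested where 2 or more of the 3 libraries of a group had a count (23806 genes). After TMM scaling, siCRP2 was compared with siCTR by the quasi-likelihood test of edgeR (4.0.16, R 4.3.3; robust fit), with p-values adjusted by Benjamini and Hochberg over all genes tested. CPM used the scaled totals, and TPM the canonical transcript length. Standard errors were derived from the F statistic. GENCODE release 44 gave the coordinates and held 57754 of 58395 genes. Promoters came from RefSeq.

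Libraries that share a code deviated together from their group means (correlation 0.723, 0.459 and 0.744 over 10828 genes, against -0.674 to 0.114 for different codes), so the code was added as a block in an alternative fit. The p-values of that fit, and of the test between codes, rest largely on a spread pooled over genes. Other alternatives were DESeq2 (version 1.42.0), edgeR's exact test, other scalings and filters, and leaving out each library. The steps were tested on simulated data.

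The members and lists were chosen with earlier results of these data known. Values in every library are given for members that passed, at most 24 by smallest p, and for the highest member per length of subgroups with none; the context genes named are the ligands and the 10 with the smallest p, of which 1 is not reported here. Other members given with values, among them IFIH1, IRF3, STAT2, IRF9, EIF2AK2, OASL, IFIT1, IFIT5, OAS3, DTX3L, ISG15, IFNAR2 and ISG20, were added after their values were seen.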

Additional observations from a re-analysis of the deposited data

How the results depend on the processing

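EPSTI1, IFI44L, IFI44, OAS1, RIGI, MAVS, TLR3, IRF1, IRF7, IFITM1, IFITM2, IFITM3, PARP9, IFIT2 and IFIT3 kept their direction and call under all 13 alternatives. No gene or count whose values were compared across them reversed. Some genes given with values, among them IFIH1, DHX58, IRF3, IRF9, IFIT1, IFIT5, OAS3, DTX3L and ISG15, entered the counts of the alternatives. Their own values were compared with those of the block alone. With the code as a replicate block, 28 members fell and 9 rose, 11 members gained a call, none lost one, and 21 context genes rose in place of 13 and 21 fell in place of 18; it changed the call of no other member. Of those 11, IFI16, GBP3, MX2, RSAD2 and EIF2AK2 also passed without the siCTR library C, SAMD9L without the siCRP2 library A, OASL without the siCTR library A, GBP3 and RSAD2 with no count filter, EIF2AK2 and OASL with filterByExpr or DESeq2, and OASL with the exact test. The members that rose numbered 3 with edgeR's exact test and 3 with median-of-ratios size factors, in place of 6. Receptor chains and factors that rose numbered 0 with the exact test, 0 with median-of-ratios size factors, 1 with filterByExpr and 0 with no count filter, in place of 2. The median of the members was -0.19 with filterByExpr, and 17 members differed between codes by DESeq2's likelihood ratio test in place of 26. Leaving out 1 library gave 13 to 22 members that fell, 2 to 5 that rose, 0 to 0 receptor chains and factors that rose, 8 to 16 effectors that fell and 2 to 5 that rose, and a median of -0.22 to -0.16. The causes were not tested. SAMD9 (0.0515) was the call lost with DESeq2. With 3 libraries a group, genes near the floor of 0.0768 to 0.175 CPM, such as IFI44L and CMPK2, are the least precise.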
